A study of Mus musculus with 41 samples.

Results

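The mice that carried the P nanomesh with no cells were compared between 6 weeks and 1 week after implantation. The P nanomesh is an electrospun, degradable mesh of a lactic acid and caprolactone copolymer that was placed under the abdominal skin. The mice were chosen by their label, "P nano-mesh" at either time point, and were 8 mice labelled 6 weeks and 6 labelled 1 week, 14 of the 41 mice of the series, all female NSG mice with skin as the labelled tissue. The remaining mice had the mesh with human endometrial mesenchymal stem/stromal cells (eMSC) or a sham operation, and the 13 sham mice (7 at 1 week and 6 at 6 weeks) are used here as the background of wounding without a mesh. NSG mice lack mature T, B and NK cells, so the response measured is that of the remaining innate and stromal cells. According to the methods, each mouse carried the mesh in a pocket on each side of the midline, and some animals came from an earlier experiment, without a statement of which. Mice are named by the animal numbers of the labels. Mouse 52 had no detected value in 31 of the 54 target genes, and mouse 2356, labelled 6 weeks, is drawn among the 1 week mice in the paper. The counts of called genes are therefore given with and without each, and so are the shifts of some single genes.

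A mesh under the skin starts a foreign body response. Neutrophils and then monocytes are drawn in by chemokines, macrophages settle on the fibers and can fuse to giant cells, and fibroblasts lay down collagen around and within the material while new vessels grow in. In an ordinary wound the early inflammatory genes fall as matrix remodeling takes over, and the comparison of 6 weeks with 1 week asks how far the skin around the P nanomesh differed between an early and a late stage of this course. Every target gene was read by TaqMan quantitative PCR. Its level is the threshold cycle (Ct) of 18S ribosomal RNA minus the Ct of the gene in the same mouse, a log2 scale on which 1 unit is a doubling and a less negative value is a higher level. Levels of different genes are not compared, since each assay has its own efficiency. In these bulk samples, fewer cells of a type and less RNA per cell cannot be told apart.

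None of the 54 genes passed the test between 6 and 1 week. A Mann-Whitney U test (exact, two-sided), at the threshold of the methods, slightly above 0.05, called 0 genes higher and 0 lower, or 0% of those tested in either direction. At an unadjusted p below 0.05 the count was also 0. The smallest exact p was 0.0734, for *Cxcl1*, and every Benjamini-Hochberg adjusted p was 1. limma (smallest unadjusted p 0.122, for *Arg1*) and an exact permutation test of the means (smallest p 0.149, for *Cxcl1*) also called 0 genes, each with 0 genes below 0.05 before adjustment. The smallest exact p that this test can give is 0.000666 for 6 against 8 mice and 0.00117 for 6 against 7, so the threshold was within reach. How large a difference it would have called at the spread of these mice was not tested. The 6 and 1 week levels overlapped in all 54 genes, and in all 54 the Hodges-Lehmann shift between the weeks was smaller than the SD among the 1 week mice. The 95% interval of the shift contained 0 in all 54 genes, and its median width was 4.71 on the log2 scale, so that changes of several-fold in either direction stayed within the interval in most genes. The interval lay between -2 and 2 for 7 genes, *Ang2*, *Ctgf*, *Pdgfa*, *Timp2*, *Tgfb2*, *Tgfbr1* and *Icam1*, and for these a difference above 4-fold lay outside it. All of these but *Timp2* and *Tgfbr1* were undetected in mouse 52. Their intervals rest on 7 mice at 6 weeks and leave out any low level in mouse 52. The interval was narrowest for *Pdgfa* (width 2.13) and widest for *Cxcl2* (width 10.1).

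**Figure D1:**
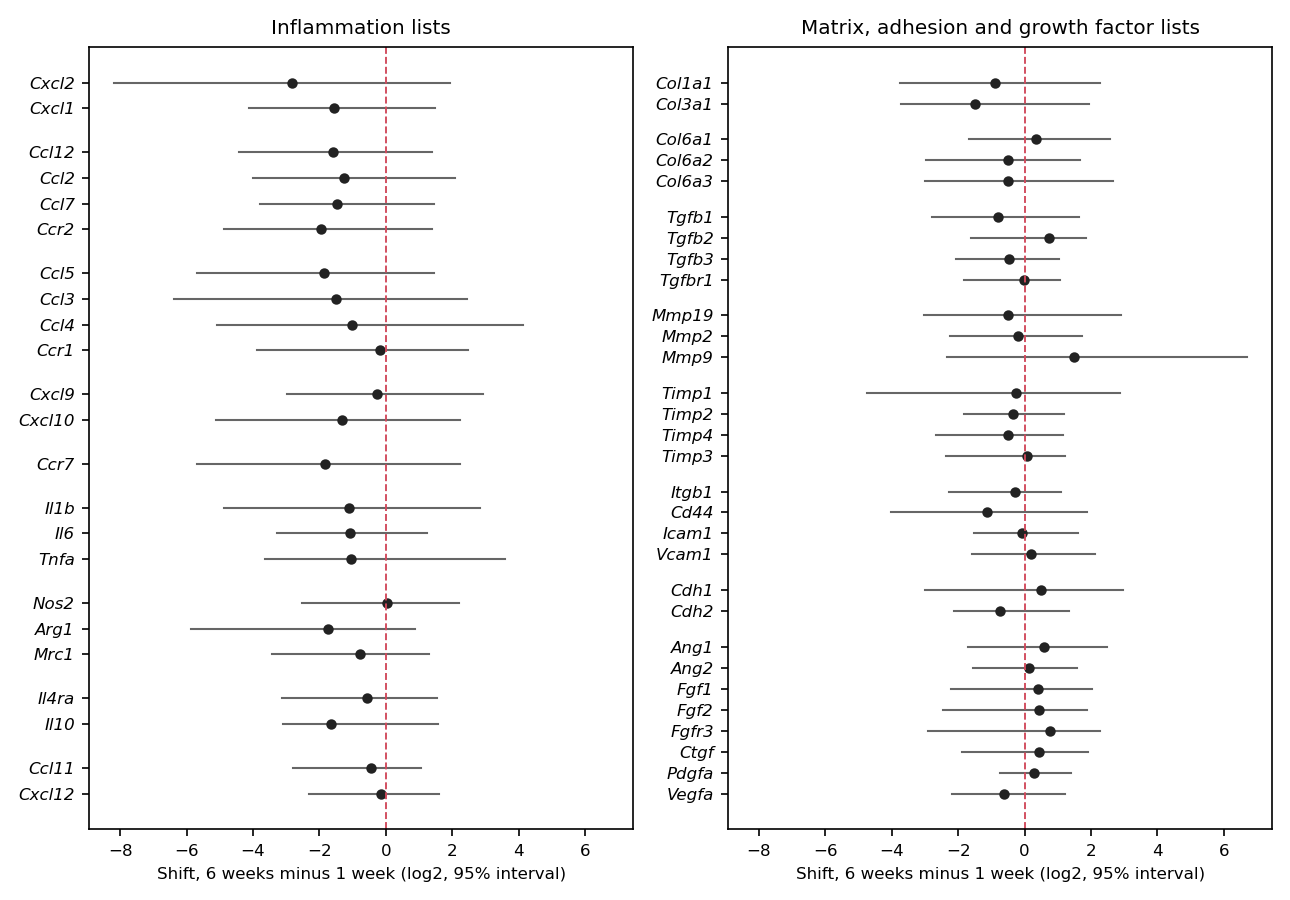
Hodges-Lehmann shift of 53 genes from 1 to 6 weeks in the P mice (points, log2 of the level against 18S) with its 95% interval (lines), grouped by gene list; the dashed line marks no difference. Every interval crosses 0, and the points of 22 of the 23 inflammation genes lie to the left of 0, while those of the matrix, adhesion and growth factor genes lie on both sides. The inflammation genes include *Il10* and *Il4ra* (anti-inflammatory signaling), the macrophage genes *Arg1* and *Mrc1* and the stromal chemokines *Cxcl12* and *Ccl11*.

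The levels differed more between mice of one week than between the weeks, and in many genes at once. At 1 week, mice 2268, 2308 and 2396 held the 3 highest levels in 22 of the 23 inflammation genes and in 15 of the 31 matrix, adhesion and growth factor genes. Mice 133 and 2355 held the 2 lowest in 21 and 22 of these genes. At 6 weeks, mouse 2356 had the highest level of its group in 17 of the 23 inflammation genes and 9 of the other 31, and mouse 437 in 2 and 18. Mouse 53 was the lowest of the P mice with a value in 14 genes, all of them undetected in mouse 52. Mouse 52 was the lowest in all 23 genes that it detected, with a median level over these genes of -16.94, against -10.52 to -6.73 in the other 13 mice. Its 18S Ct was 7.79, and that of the others lay between 6.20 and 7.14, so its target genes were low by more than its 18S was late. The other 13 mice had 1 undetected value, *Ccl4* in mouse 121. The SD over mice was larger at 6 than at 1 week in 36 of the 54 genes, and in 18 without mouse 52. Whether RNA quality or the amount of mesh or skin in a sample differed between these mice was not tested.

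**Figure D2:**
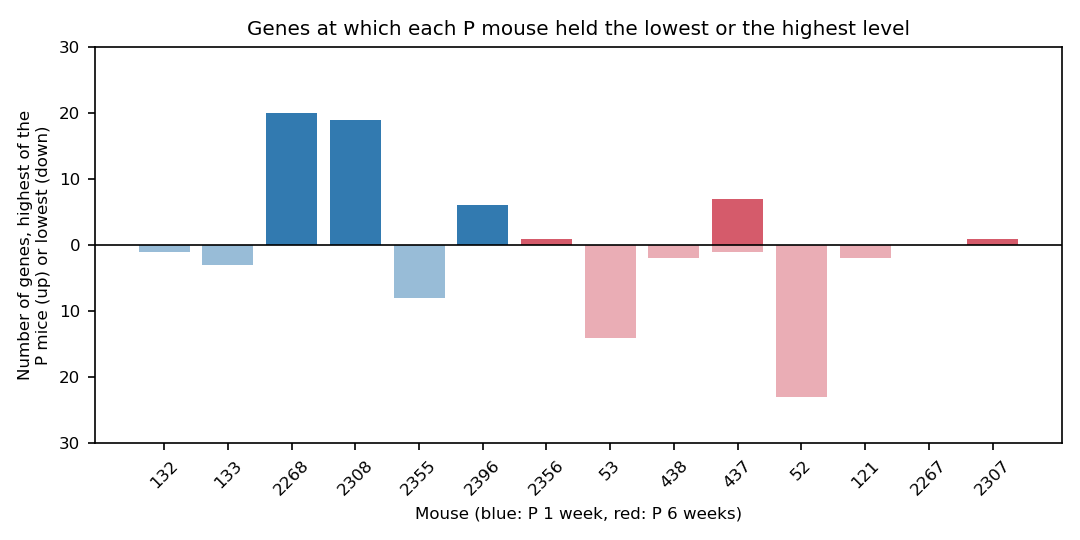
Number of genes in which each of the 14 P mice held the highest level of all P mice (bars up) or the lowest (bars down), with mice labelled 1 week in blue and 6 weeks in red. Mice 2268 and 2308 at 1 week held the highest level in 20 and 19 genes, and mice 52 and 53 at 6 weeks the lowest in 23 and 14. Undetected values are left out, and the genes in which mouse 53 was lowest were all undetected in mouse 52.

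The tissue label was compared with its markers. *Cdh1*, which encodes E-cadherin of the epidermis, was detected in 13 of the 14 mice and was undetected in mouse 52. It ranged from -15.34 to -7.54 at 1 week and from -18.99 to -8.63 at 6 weeks, with mouse 133 lowest at 1 week and mouse 53 lowest at 6 weeks. The fibroblast collagens *Col1a1* and *Col3a1* were detected in all 14 mice, as were *Col6a2*, *Col6a3* and *Mmp2*. The collagen gene *Col6a1* was undetected in mouse 52. The vessel genes *Ang2*, *Vcam1* and *Icam1* and the monocyte receptor gene *Ccr1* were also undetected in mouse 52. The other macrophage and monocyte genes, *Mrc1*, *Arg1* and *Ccr2*, were detected in all 14 mice. The part of the epidermis in the levels of mice 133 and 53 was not tested.

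The neutrophil chemokines *Cxcl1* and *Cxcl2*, ligands of Cxcr2 that draw neutrophils to injured tissue, had the lowest shifts as a list (median -2.19). Their promoters are shown because *Cxcl1* came nearest to the threshold and because the pair sits close together on chromosome 5. The sequences are RefSeq's for the mouse genome build GRCm38.p6, on the + strand, from 250 bases before to 50 bases after the start of the gene, at chr5:90890995-90891294 for *Cxcl1* and chr5:90903649-90903948 for *Cxcl2*. Capitals mark matches to a motif of the kind that NF-kappaB binds (GGG, any 2 bases, TTTCC), searched on both strands.

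Cxcl1: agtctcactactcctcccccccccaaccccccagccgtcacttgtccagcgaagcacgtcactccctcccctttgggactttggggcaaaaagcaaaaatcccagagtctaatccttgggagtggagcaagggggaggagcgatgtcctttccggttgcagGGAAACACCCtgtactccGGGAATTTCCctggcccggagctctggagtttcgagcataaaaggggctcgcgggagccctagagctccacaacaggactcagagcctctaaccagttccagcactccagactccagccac

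Cxcl2: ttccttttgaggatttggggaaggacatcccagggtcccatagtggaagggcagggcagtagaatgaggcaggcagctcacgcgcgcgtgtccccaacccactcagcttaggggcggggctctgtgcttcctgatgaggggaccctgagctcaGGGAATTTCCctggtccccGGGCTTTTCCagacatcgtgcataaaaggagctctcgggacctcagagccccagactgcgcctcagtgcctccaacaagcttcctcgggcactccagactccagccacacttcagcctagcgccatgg

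Each promoter held 2 matches. In *Cxcl1*, GGAAACACCC (on the - strand) and GGGAATTTCC began 89 and 71 bases before the start, and in *Cxcl2*, GGGAATTTCC and GGGCTTTTCC began 97 and 78 bases before it. Among all 32851 promoters of this length in the table, 535 (1.63%) held at least 1 match, and of the 32 panel genes with a promoter there 4 did, *Cxcl1*, *Cxcl2*, *Il4ra* and *Il6*. A match describes the letters and is not a measured binding site.

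*Cxcl1* lay at -15.72, -14.35 and -11.80 (lowest, median, highest) in the 6 mice at 1 week and at -18.08, -15.90 and -12.31 in the 7 mice at 6 weeks with a value. Mice 53, 2267, 438, 437 and 121, 5 of these 7, were below every 1 week mouse, though mouse 121 at -15.78 was only just under mouse 133 at -15.72. Mice 2307 (-13.00) and 2356 (-12.31) were above the 1 week median. The shift was -1.57 (95% interval -4.11 to 1.49, exact two-sided p = 0.0734), and mouse 52 had no value. Without mouse 2356 the shift was -1.81 (exact p = 0.0260), and *Cxcl1* was then the 1 gene called lower, 1.85% of the 54. The Benjamini-Hochberg adjusted p over the 54 genes was 0.940 without mouse 2356 and 1 without mice 52 and 2356, where *Cxcl1* was again the 1 gene called, 1.85% of the 54. With mouse 2356 counted at 1 week, where the paper draws it, the shift was -2.11 (exact p = 0.0140), with an adjusted p of 0.743. Leaving out mouse 2307 in place of 2356 also brought *Cxcl1* alone past the threshold (exact p = 0.0260), and leaving out mouse 52 did not change its value.

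*Cxcl2* lay at -19.28, -13.25 and -8.03 at 1 week and at -23.39, -15.91 and -11.84 at 6 weeks. Only mouse 121 (-23.39) was below every 1 week mouse, and mice 2307 (-11.84) and 2356 (-12.28) were again at the top of the 6 week mice. Its shift of -2.81 had the widest interval of the 54 genes (-8.18 to 1.94, exact p = 0.366), and it was -3.63 among mice with numbers below 1000 and -0.29 among those above 2000. Without mouse 2356 the *Cxcl2* shift was -3.40 (exact p = 0.240).

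The genes of monocyte recruitment, *Ccr2*, the receptor that brings inflammatory monocytes from blood, and its ligands *Ccl2*, *Ccl7* and *Ccl12*, had a median shift of -1.53, with 4 of 4 below 0 and 0 called. *Ccr2* lay at -14.09, -10.94 and -8.43 at 1 week and at -20.29, -12.90 and -8.70 at 6 weeks. Mouse 52 held the lowest of these values and mouse 2356 the highest, while the other 6 mice at 6 weeks were close together, from -14.49 to -12.28. The 1 week mice stood on both sides of them, with mice 2355 (-13.93) and 133 (-14.09) at the level of the 6 week mice and the other 4 above. The *Ccr2* shift was -1.95 (-4.87 to 1.40, exact p = 0.282) with all mice, -1.54 (p = 0.445) without mouse 52 and -1.95 (p = 0.240) without mice 52 and 2356. It was -2.52 (exact p = 0.138) without mouse 2356 alone and -3.21 (exact p = 0.0728) with mouse 2356 counted at 1 week. *Ccl12* lay at -12.33, -9.10 and -7.84 at 1 week and -16.69, -10.80 and -7.89 at 6 weeks, again with mouse 52 lowest and mouse 2356 highest at 6 weeks. The other 6 mice at 6 weeks were more spread than for *Ccr2*, from -13.45 (mouse 53) to -9.53 (mouse 2307). The *Ccl12* shift was -1.60 (-4.41 to 1.40, exact p = 0.282), -1.14 (exact p = 0.445) without mouse 52 and -2.56 (exact p = 0.0728) with mouse 2356 counted at 1 week. *Ccl7* was undetected in mouse 52 and lay at -14.35, -10.39 and -9.34 at 1 week and at -13.78, -12.88 and -9.76 at 6 weeks. The 1 week mice formed a high set of 3 at about -9.4 and a low pair at -14.16 and -14.35, and 5 of the 7 mice at 6 weeks fell between -13.78 and -12.79, just above the low pair. *Ccl2* had a shift of -1.25 (exact p = 0.366), and with mouse 2356 at 1 week those of *Ccl2* and *Ccl7* were -2.84 (exact p = 0.181) and -2.37 (exact p = 0.295).

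**Figure D3:**
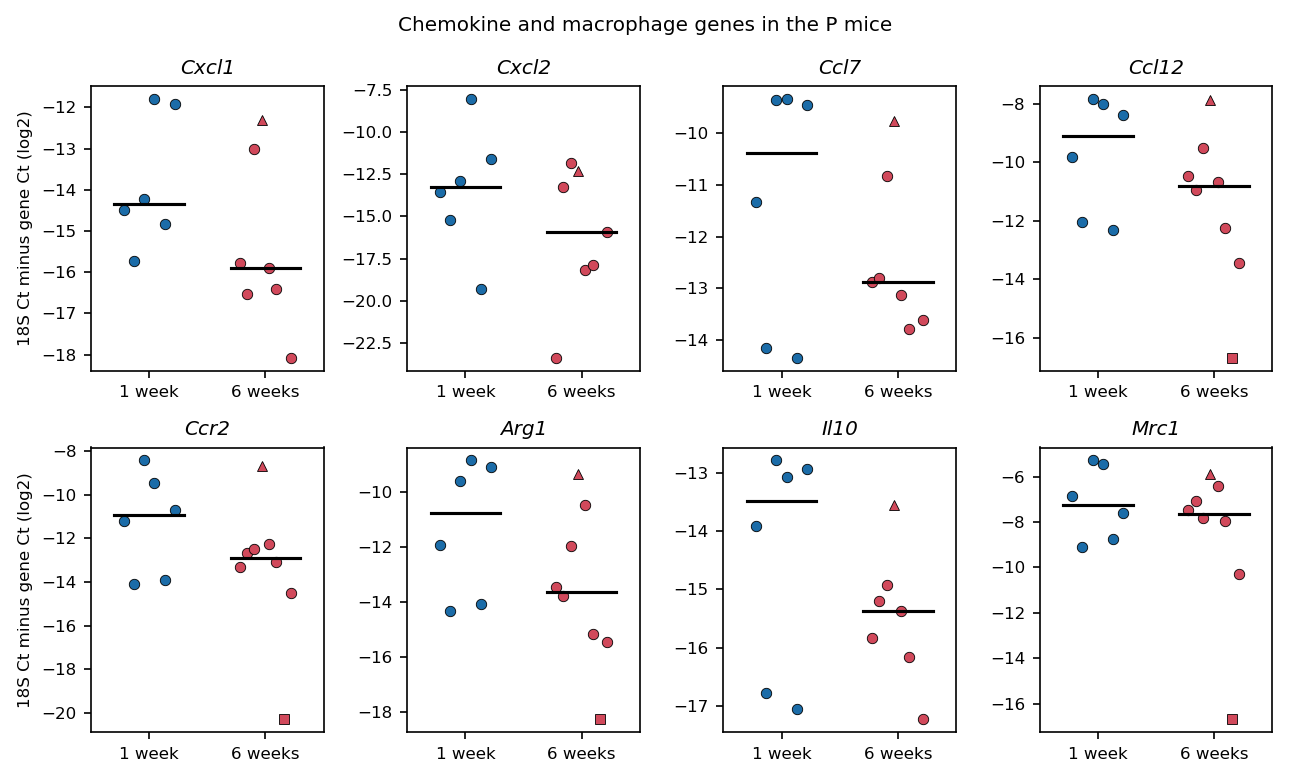
Level of 8 inflammation genes in each P mouse (18S Ct minus gene Ct, log2) at 1 week (blue) and 6 weeks (red), with the median of each group as a line, mouse 52 as a square where detected and mouse 2356 as a triangle. Mouse 2356 is the highest or among the 2 highest of the 6 week mice in each panel, and 5 of the 7 values of *Cxcl1* at 6 weeks are below every 1 week mouse.

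*Ccr1*, a receptor on monocytes and neutrophils, and its ligands *Ccl3*, *Ccl4* and *Ccl5* had shifts between -1.85 and -0.19 and 0 called. *Ccl5* gave the largest of them, at -16.93, -11.46 and -10.37 at 1 week and -18.72, -14.22 and -10.84 at 6 weeks. Mice 52 (-18.72) and 121 (-17.68) were below every 1 week mouse and mice 2307 and 2356 reached the 1 week median. The shift of *Ccl5* moved from -1.85 (-5.70 to 1.46, exact p = 0.181) to -0.97 (exact p = 0.295) without mouse 52 and to -2.33 (exact p = 0.138) without mouse 2356. That of *Ccr1* moved from -0.19 (exact p = 0.945) to -1.35 (exact p = 0.589) without mouse 2356, and that of *Ccl3* from -1.49 (exact p = 0.491) to -0.77 (exact p = 0.731) without mouse 52. The median Ct of *Ccl3* in the P mice, 23.6, was the highest of all genes, and that of *Ccl4* was 21.1. Those of *Il6* (23.1), *Il10* (22.3), *Ccr7* (22.2), *Cxcl1* (21.8) and *Cxcl9* (21.2) were also later than that of *Ccl4*.

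Of the interferon-inducible chemokines, ligands of Cxcr3, *Cxcl10* lay at -15.00, -11.25 and -8.55 at 1 week and at -15.11, -14.04 and -9.40 at 6 weeks. At 6 weeks 4 mice lay between -15.11 and -14.04, near the 1 week mice 133 (-14.39) and 2355 (-15.00), and mouse 2356 was as high as the upper 1 week mice. Its shift was -1.32 (-5.12 to 2.23, exact p = 0.366) with and without mouse 52, -2.07 (exact p = 0.240) without mouse 2356 and -2.64 (exact p = 0.138) with that mouse counted at 1 week. The shift of *Cxcl9* was -0.27 (exact p = 1), or -0.85 (exact p = 0.836) with mouse 2356 at 1 week. *Ccr7*, a receptor of dendritic and inflammatory macrophage cells that guides them to lymph nodes, had a shift of -1.82 (-5.68 to 2.24, exact p = 0.366), with mice 121 (-19.75) and 438 (-19.36) below every 1 week mouse. It was -2.45 (exact p = 0.180) without mouse 2356 and -2.81 (exact p = 0.101) with that mouse at 1 week.

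The inflammatory cytokines *Il1b*, *Il6* and *Tnfa* had nearly equal shifts of -1.10, -1.08 and -1.04, none of which passed the test (exact p from 0.295 to 0.836). *Il1b* lay at -16.05, -13.22 and -9.10 at 1 week and at -16.21, -14.68 and -9.84 at 6 weeks. Here 5 mice at 6 weeks lay between -16.21 and -13.98, and mice 2307 (-10.68) and 2356 (-9.84) were apart from them, near the highest 1 week mouse. The *Il1b* shift was -1.32 among mice with numbers below 1000 and 0.96 among those above 2000. All 3 cytokines were undetected in mouse 52. Without mouse 2356 the shifts of *Il1b*, *Il6* and *Tnfa* were -1.42, -1.35 and -1.81, with exact p from 0.180 to 0.589.

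Among macrophage genes, *Arg1*, an arginine-consuming enzyme of repair-type macrophages, lay at -14.33, -10.77 and -8.85 at 1 week and at -18.27, -13.62 and -9.36 at 6 weeks. Mice 52 (-18.27), 53 (-15.46) and 438 (-15.15) were below every 1 week mouse, and mice 2356 (-9.36) and 437 (-10.47) were above the 1 week median. The *Arg1* shift was -1.74 (-5.85 to 0.88, exact p = 0.181), and -1.38 (exact p = 0.295) without mouse 52. It was -3.00 (exact p = 0.101) without mouse 2356 and -3.22 (exact p = 0.0530) with mouse 2356 counted at 1 week. *Mrc1*, the mannose receptor of tissue macrophages, had a shift of -0.78 (exact p = 0.491), or -0.38 without mouse 52, and *Nos2*, the inducible nitric oxide synthase of inflammatory macrophages, had one of 0.03 (-2.53 to 2.21, exact p = 0.945), the only inflammation gene above 0, which went to -0.05 without mouse 2356. The anti-inflammatory cytokine *Il10* lay at -17.06, -13.48 and -12.78 at 1 week and at -17.24, -15.37 and -13.54 at 6 weeks. The *Il10* levels at 1 week were split, with 4 mice between -13.91 and -12.78 and mice 133 and 2355 near -17, and at 6 weeks 5 mice lay between these sets, from -16.17 to -14.93, with mouse 53 below at -17.24 and mouse 2356 above at -13.54. Its shift was -1.66 (-3.11 to 1.58, exact p = 0.295), and -2.07 (exact p = 0.240) without mouse 2356. *Il4ra*, a receptor chain of interleukin 4 and 13 signaling, and the stromal chemokines *Ccl11* and *Cxcl12* had shifts of -0.56, -0.45 and -0.14 (exact p from 0.573 to 0.950). Without mouse 52 these were -0.04, -0.14 and 0.18, and without mouse 2356 they were -0.84, -0.69 and -0.60.

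Across the 9 inflammation lists, the median shift of the 23 genes was -1.25, against -0.50 over all 54 genes and -0.07 over the other 31. These lists are not all pro-inflammatory, as they hold *Il10*, *Il4ra*, *Arg1*, *Mrc1* and the stromal chemokines. In all, 40 of the 54 shifts were below 0. Without mouse 52 the 3 medians were -1.08, -0.20 and 0.13, and without mice 52 and 2356 they were -1.60, -0.28 and 0.01. These medians describe the lists and were not tested.

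The fibrillar collagen genes *Col1a1* and *Col3a1*, which encode the main collagens of scar and granulation tissue, had no shift past the threshold. *Col3a1* lay at -6.81, -2.81 and -1.26 at 1 week and at -12.01, -4.39 and -2.13 at 6 weeks. Mouse 52 alone was below the 1 week mice, and the other 7 at 6 weeks lay between -5.66 and -2.13, within the span from mouse 133 to mouse 2268 at 1 week. The *Col3a1* shift was -1.51 (-3.72 to 1.95, exact p = 0.345), and -0.97 (exact p = 0.534) without mouse 52. It was -1.68 (exact p = 0.234) without mouse 2356 and -1.79 (exact p = 0.128) with mouse 2356 counted at 1 week. *Col1a1* lay at -5.96, -2.71 and -0.26 at 1 week and at -11.40, -3.44 and -1.31 at 6 weeks, with a shift of -0.89 (-3.76 to 2.27, exact p = 0.491), -0.61 (exact p = 0.731) without mouse 52 and -1.99 (exact p = 0.209) with mouse 2356 counted at 1 week. The 3 collagen VI genes, whose chains form the beaded filaments around cells, had shifts of 0.34 (*Col6a1*), -0.50 (*Col6a2*) and -0.51 (*Col6a3*). The signs of the *Col6a2* and *Col6a3* shifts changed without mouse 52, to 0.14 and 0.63. That of *Col6a3* also changed without the 1 week mouse 2268 (0.93) or 2308 (0.93) or the 6 week mouse 53 (0.63). With mouse 2356 counted at 1 week, *Col6a1* was at -0.25.

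Of the TGF-beta genes, which drive fibroblast activation and matrix synthesis, *Tgfb2* stood above 0 and the other 3 below. *Tgfb2* lay at -12.17, -11.62 and -9.82 at 1 week and at -13.80, -10.69 and -9.45 at 6 weeks. Mouse 52 had no value for *Tgfb2*, and mouse 53 (-13.80) was the lowest of the mice with one. At 6 weeks, 5 of the 7 mice with a value were above 5 of the 6 mice at 1 week. The shift of *Tgfb2* was 0.73 (-1.63 to 1.85, exact p = 0.295). *Tgfb1* had a shift of -0.82 (-2.80 to 1.65, exact p = 0.491), or -0.25 (exact p = 0.731) without mouse 52. The shift was -0.48 (exact p = 0.345) for *Tgfb3* and -0.01 (exact p = 1) for the receptor gene *Tgfbr1*, which was at 0.15 without mouse 52.

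*Mmp9*, the gelatinase of neutrophils and macrophages, had the highest shift of the panel, 1.47 (-2.33 to 6.70, exact p = 0.366). Without mouse 2356 this shift was 1.72 (exact p = 0.394). *Mmp9* lay at -15.44, -12.62 and -9.01 at 1 week and at -14.00, -11.60 and -5.67 at 6 weeks. Mice 2307 (-5.67), 53 (-7.84) and 2267 (-8.16) were above every 1 week mouse, and mice 121, 437 and 438 lay between -14.00 and -13.05, below the 1 week median. Mouse 53 was thus among the highest for *Mmp9* and the lowest detected of its group for *Cxcl1*, *Cdh1* and *Tgfb2*. The other metalloproteinase genes, *Mmp2* and *Mmp19*, had shifts of -0.19 and -0.51, and that of *Mmp2* was 0.08 without mouse 52. The inhibitor genes *Timp1* to *Timp4* had shifts between -0.51 (*Timp4*) and 0.08 (*Timp3*), with exact p from 0.573 to 0.950. The *Timp1* shift of -0.26 became -1.17 (exact p = 0.589) without mouse 2356, and that of *Timp3* became -0.25 (exact p = 0.945).

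**Figure D4:**
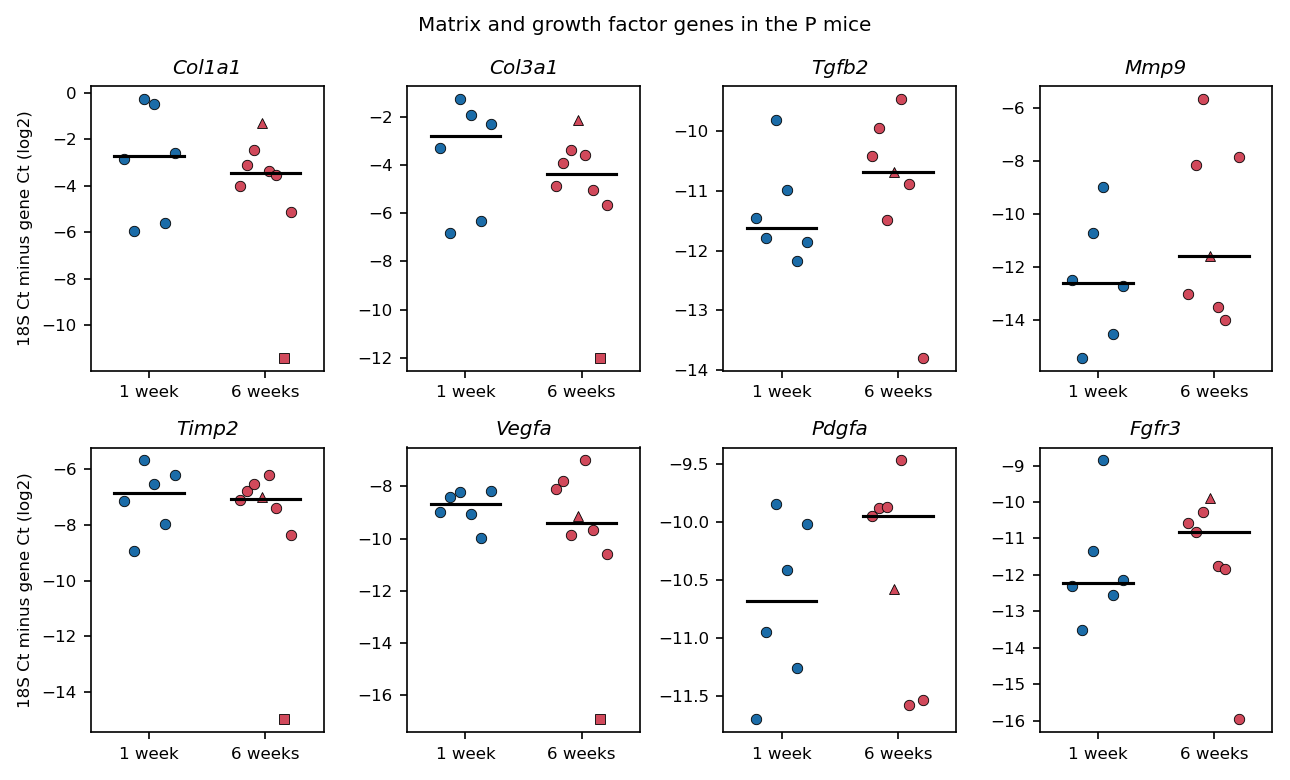
Level of 8 matrix and growth factor genes in each P mouse (18S Ct minus gene Ct, log2) at 1 week (blue) and 6 weeks (red), with the median of each group as a line, mouse 52 as a square where detected and mouse 2356 as a triangle. Mouse 52 lies far below every other mouse for *Col1a1*, *Col3a1*, *Timp2* and *Vegfa*, and 3 mice at 6 weeks stand above every 1 week mouse for *Mmp9*.

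The adhesion receptor genes *Itgb1* (the beta 1 integrin chain), *Vcam1* and *Icam1* (endothelial ligands of leukocyte integrins) had shifts between -0.30 and 0.18, and *Cd44*, the hyaluronan receptor, one of -1.13 (-4.02 to 1.87, exact p = 0.491). The *Cd44* shift was -0.72 without mouse 52 and -2.07 with mouse 2356 counted at 1 week. Those of *Itgb1* and *Vcam1* changed sign, to 0.04 without mouse 52 and to -0.02 without mouse 2356. *Cd44* lay at -10.40, -6.84 and -4.84 at 1 week and at -15.93, -8.37 and -5.49 at 6 weeks, with mice 2307 and 2356 near the upper 1 week mice and the 5 other detected mice besides mouse 52 between -9.25 and -7.73. *Cdh2*, which encodes N-cadherin of mesenchymal and neural cells, had a shift of -0.73 (-2.14 to 1.33, exact p = 0.534), and *Cdh1* one of 0.50 (-3.00 to 2.95, exact p = 0.945), which went to -0.10 without mouse 2356.

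The angiogenic and mesenchymal growth factor list was the 1 list with over 50% of its shifts above 0, 7 of 9, with a median of 0.40 and 0 called. Mouse 52 was undetected in 8 of these 9 genes, so its low levels entered the shift of *Vegfa* alone. With undetected values ranked last, the shifts of *Ang2* (-0.37), *Fgf1* (-0.18) and *Fgf2* (-0.03) went below 0. Those of *Ang1*, *Fgfr3*, *Ctgf* and *Pdgfa* stayed above it. With undetected values left out, the largest shift was that of *Fgfr3*, at 0.78 (-2.90 to 2.28, exact p = 0.366). *Fgfr3* encodes a receptor of fibroblast growth factors expressed in keratinocytes. *Fgfr3* lay at -13.52, -12.22 and -8.86 at 1 week and at -15.97, -10.83 and -9.90 at 6 weeks, where mouse 53 held the lowest level and the next mouse was at -11.84. *Ang1* (0.57), *Fgf1* (0.40) and *Fgf2* (0.43) had mice on both sides of the whole 1 week range. For each of *Ang1* and *Fgf1*, mice 437, 121 and 2267 were above it and 2 mice, mouse 53 among them, were below it. *Vegfa*, the main growth factor of endothelial cells, had a narrow range at 1 week, from -10.00 to -8.19 (SD 0.69), and a wider one at 6 weeks, from -16.94 to -7.00. Mice 437 (-7.00), 2267 (-7.77) and 121 (-8.10) were above every 1 week mouse and mice 53 (-10.61) and 52 (-16.94) below, so the shift of -0.62 (-2.20 to 1.20, exact p = 0.755) lay between mice that went both ways, and it was -0.01 without mouse 52. *Pdgfa*, a mitogen of fibroblasts and pericytes, had the tightest estimate, 0.27 (-0.74 to 1.39, exact p = 0.534). *Ctgf* and *Ang2* had shifts of 0.43 (exact p = 0.731) and 0.13 (exact p = 0.945). Without mouse 2356 the *Ang2* shift was -0.15 and that of *Ang1* was 1.11 (exact p = 0.589).

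The same values were set against the median of the panel in each mouse in place of 18S, which takes out what moves a whole sample up or down. The median of all 54 shifts then went from -0.50 to 0.00019, with 27 genes above and 27 below 0. Since this reference is taken from the same genes, a median near 0 is in part built in. With all mice this panel median rested on the 23 genes detected in every P mouse, and 0 genes were called (smallest exact p = 0.101, for *Il10*), 0% in either direction. The inflammation lists then had a median of -0.71, with 18 of 23 below 0, and the other lists one of 0.17, with 22 of 31 above. Without mouse 52, where 53 genes form the panel median, 1 gene was called lower (1.85%), *Cdh2* (shift -0.51, exact p = 0.0350). Without mice 52 and 2356, 5 genes were called lower and 0 higher, 9.26% of the 54, with a smallest Benjamini-Hochberg adjusted p of 0.351. They were *Ccl12* (shift -1.42, exact p = 0.00866), *Ccr2* (-1.46, p = 0.0152), *Ccl7* (-1.16, p = 0.0260), *Arg1* (-1.88, p = 0.0260) and *Cxcl1* (-2.17, p = 0.0411). The settings without these mice, with the panel median, were chosen after the values had been seen.

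**Figure D5:**
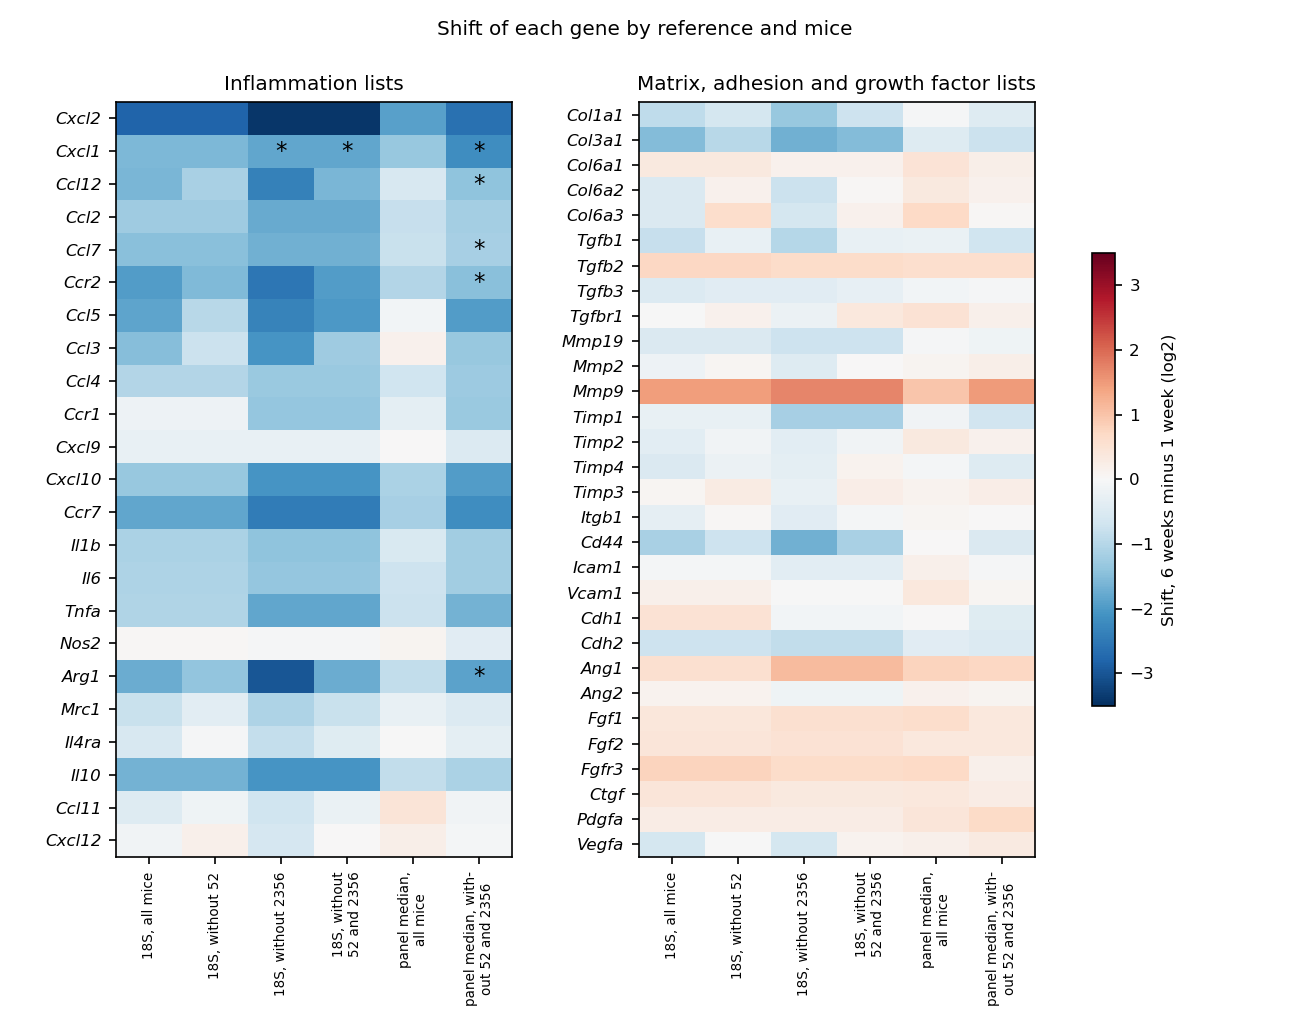
Hodges-Lehmann shift from 1 to 6 weeks (color, log2) of 53 genes against 18S or the panel median, with all P mice or without mouse 52, mouse 2356 or both; an asterisk marks a gene past the threshold of the methods. *Cxcl1* holds an asterisk against 18S only where mouse 2356 is left out, and 5 genes hold one against the panel median without both mice.

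The animal numbers fell into 2 series, below 1000 (2 mice at 1 week, 5 at 6 weeks) and above 2000 (4 and 3). The labels do not say what the series mean. The median shift of the 54 genes was -0.36 within the lower series and -0.26 within the upper, 32 and 36 genes were lower at 6 weeks, and 34 had the same direction in both. An exact permutation within the series called 0 genes (smallest p 0.107, for *Cxcl1*). For *Cxcl1* the shift was -1.34 within the lower and -0.80 within the upper series, and for *Mmp9* it was 1.69 and 3.14.

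Whether the P mice differed between the weeks by more than the sham mice did was tested as an interaction in limma over the 27 P and sham mice. The difference, P minus sham, was below 0 in 50 of the 54 genes with a median of -1.35, and 0 genes passed an adjusted p of 0.05 (0% of those tested), nor did any at 0.05 before adjustment (0 of 54). The largest was that of *Cxcl10*, whose mean level went from -11.63 to -13.04 in the P mice and from -12.47 to -11.10 in the sham mice, a difference of -2.77 (SE 1.81, adjusted p = 0.745). *Ccr2* (-2.58, SE 1.81) and *Ccl12* (-2.42, SE 1.67) were next in size below 0, with the same adjusted p of 0.745. For *Cxcl1* the difference was -1.42 (SE 1.56, adjusted p = 0.745), and for *Mmp9*, the highest of the 4 genes above 0, it was 2.12 (SE 1.77, adjusted p = 0.745). Without mouse 52 the median over the genes was -0.76 and without mice 52 and 2356 it was -0.95. Against the panel median it was 0.07, with 24 genes below and 30 above 0, where a median near 0 is again in part built in. *Mmp9* then gave the smallest unadjusted limma p, with a difference of 2.94 (SE 1.54, adjusted p = 0.982).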

How the data were processed

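Tissue from 14 P and 13 sham mice was assayed for 54 target genes and 18S by TaqMan quantitative PCR of preamplified cDNA (Fluidigm). The authors deposited Ct values as exported, with no normalization and with 999 or an empty cell where no Ct was called. Their table of linear fold changes against the sham mice of each week was not used. Ct values carry no read depth, so the number of mice limits the precision.

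The level was 18S Ct minus gene Ct. Undetected values were left out, and a gene needed at least 4 values per week. P at 6 weeks was compared with P at 1 week by a Mann-Whitney U test (exact, two-sided, all rank sums enumerated), called at p of 0.0513 or less as in the methods, with the Hodges-Lehmann shift, its 95% interval and Benjamini-Hochberg adjustment over 54 genes (scipy 1.17.1, Python 3.11.15). The interaction with sham and an alternative test used limma 3.58.1 in R 4.3.3. The tests were run on simulated data with independent genes and shifts larger than any seen here. How well they call smaller shifts, or genes that move together, was not tested. Mice were not paired, since each had a single time point and the labels share no replicate numbers between groups. The labels give 1 sample per mouse, so each value is a separate animal.

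The members and the 17 gene lists were chosen with earlier results of these data known. Every called gene and, of each list with no call, the member with the largest shift were to be named, and the other genes were named after their values were seen. Panel symbols matched RefSeq as symbols for 50 and as synonyms for 4 (with *Tnfa*, *Ctgf*, *Ang1* and *Ang2* kept as in the files). In addition, 1 gene of the panel entered the fits and counts and is not reported here by name or drawn. Alternatives covered the reference, undetected values, a Ct filter at 25, the test, the number series and the mice left out.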

Additional observations from a re-analysis of the deposited data

Results flagged for a closer look

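In 19 of 108 groups of a gene and a week, the lowest mouse at 6 weeks stood apart from the next by more than Dixon's limit, which chance exceeds in about 1 in 20 groups. In 17 of them this was mouse 52. Its levels were -11.40 for *Col1a1*, -12.01 for *Col3a1*, -18.24 for *Col6a2*, -16.18 for *Mmp2*, -15.00 for *Timp2*, -17.15 for *Timp3* and -16.61 for *Timp4*. They were -16.52 for *Tgfb1*, -18.46 for *Tgfb3*, -19.18 for *Tgfbr1*, -16.94 for *Vegfa*, -18.07 for *Itgb1* and -15.93 for *Cd44*. They were -15.15 for *Ccl11*, -17.34 for *Cxcl12*, -16.61 for *Il4ra* and -16.70 for *Mrc1*. In the other 2 groups it was mouse 53, at -15.97 for *Fgfr3* and -18.99 for *Cdh1*, where the next mice were at -11.84 and -10.54. The 19 cases come from 2 mice and are not independent of each other.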

How the results depend on the processing

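With all mice and 18S as reference, 0 genes were called lower. The count became 1 with undetected values ranked last, without mouse 2356, without mice 52 and 2356, with mouse 2356 counted at 1 week, and with this and mouse 52 left out, the gene being *Cxcl1* each time. With undetected values ranked last its exact p was 0.0426. Against the panel median the count was 1 without mouse 52 (*Cdh2*) and 5 without mice 52 and 2356. Leaving out each mouse in turn gave counts from 0 to 1 (1 without 2356 or 2307) and a median shift from -1.01 to -0.03. No gene was called higher in any of these settings, and a Ct filter at 25 removed none. Of 54 genes, 24 kept their direction over 25 alternatives, 19 of them below 0. The alternatives are not independent of each other. The Ct filter and the permutation within the number series left every shift as it was. limma and the permutation of the means share the same estimate. Against 18S, leaving out mouse 52 could not change the 31 genes undetected in it.

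Of all 54 shifts, 13 changed sign against the panel median, each from below to above 0. The panel median is itself taken from these genes. The sign changed in 6 shifts without mouse 52, 5 without mouse 2356, 11 without both and 7 with mouse 2356 counted at 1 week. With undetected values ranked last, 7 changed, each from above to below 0. Among the genes named by the rule, 1 per list, the direction reversed for *Ccl11* (0.45), *Cd44* (0.021) and *Col6a3* (0.70) against the panel median. *Col6a3* was also above 0 without mouse 52 (0.63), without mice 52 and 2356 (0.16), and against the panel median without mouse 52 (0.037) or both (0.032), and its shift ranged from -0.88 to 0.93 when each mouse was left out in turn. *Timp4* was at 0.11 without mice 52 and 2356 and at 0.44 with mouse 2356 counted at 1 week and mouse 52 out. The cause was not tested.

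In the limma interaction, 0 genes passed the adjusted threshold in any setting, the median ranged from -1.80 to -0.76 when each mouse was left out, and 2 genes had an unadjusted p below 0.05 without sham mouse 2269. No paired analysis was possible because no replicate number is shared between the groups. Intervals of the shift are wide in most genes, so a null result here does not show equal levels.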
